A study of Homo sapiens with 9 samples.

Results

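The replication-dependent histone genes were described in RNA-seq of 9 libraries from stable HEK293T lines. The members are the protein-coding genes of the deposited table with the symbols H1-1 to H1-6 or with symbols that begin with H2AC, H2BC, H3C or H4C followed by a number. This rule gave 70 of 78986 genes, of which 6 encode H1, 17 H2A, 19 H2B, 13 H3 and 15 H4. HEK293T is a human embryonic kidney line that carries the large T antigen of SV40, a protein that binds and inactivates p53. It is labeled HEK293 in the sample records and HEK293T in their culture notes. All 3 lines carried a lentiviral p53 construct under puromycin selection, either WT p53, G245S or R273H, and 3 biological replicates of each were sequenced. G245S and R273H are hotspot substitutions in the DNA-binding domain of p53. Each construct was represented by 1 stable line, so line and construct cannot be told apart, and no line without a construct was analyzed here. All lines were grown in the same medium and harvested with trypsin without any further treatment.

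Replication-dependent histones supply the protein that packages newly copied DNA. H2A, H2B, H3 and H4 form the core of the nucleosome, and H1 binds the linker DNA between nucleosomes. Their genes lie in clusters, mostly lack introns and are transcribed in S phase under NPAT, a target of cyclin E and CDK2. Their mRNAs are known for ending in a conserved stem-loop bound by SLBP in place of a poly(A) tail. Cleavage just after the stem-loop is directed by the U7 snRNP, and the mRNAs are degraded when DNA synthesis stops. Some of these genes also give longer, polyadenylated transcripts that run past the stem-loop. The libraries were made from mRNA by reverse transcription and tagmentation, and how reverse transcription was primed is not given in the sources used here.

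Of the 70 genes, 55 lay on chromosome 6 between 25723397 and 27893891 of GRCh38, 11 on chromosome 1 between 149782689 and 149887965, and 2 further along chromosome 1 between 228434777 and 228463104. The remaining genes were H4C16 on chromosome 12 and H2BC12L on chromosome 21. The stem-loop was searched as the pattern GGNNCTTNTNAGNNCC, on the sense strand only, in the 200 bases after the stop codon of each gene in GENCODE v44. It was present in 69 of the 70 members, 22 to 67 bases after the stop codon, and was not found in H2BC12L. Over all protein-coding genes, 74 of 19919 stop codons (0.372%) had the pattern in this window. A match is a description of the sequence and does not show that the site was used.

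The 30 bases that end with the stem-loop are shown for the members on which the levels and comparisons below turn, with the stem-loop in capitals.
H4C3: caaaaaaacccaaaGGCCCTTTTCAGGGCC
H4C11: ttctatcaataaaaGGCCCTTTTCAGGGCC
H2BC12: agcccaaccccaaaGGCTCTTTTAAGAGCC
H2BC5: cacctaatcccaaaGGCTCTTTTAAGAGCC
H2AC25: ttgatggacataaaGGCTCTTTTCAGAGCC
H2AC20: aaaccaagaccaaaGGCTCTTTTTAGAGCC
H3C6: accttaaatccaaaGGCTCTTCTCAGAGCC
H1-2: tctaaaacccaaaaGGCTCTTTTCAGAGCC
H1-4: caacacaacccaaaGGCTCTTTTCAGAGCC
All 15 H4 genes had a stem that opens with GGCCC, and 10 of them had exactly the stem-loop of H4C3. The most frequent stem-loop in the other classes was that of H1-2, found in 4 H1, 13 H2A, 12 H2B and 11 H3 genes. The H4C3 stem-loop was at 26104317 to 26104332 on the plus strand of chromosome 6. In the 30 bases before the stem-loop, H4C3 had 21 A, the highest number of the 69 members. The next highest was H2AC20 with 18 A, and the median was 10. The number of A was counted after the levels had been seen.

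Depth in the 9 libraries ranged from 1486315 to 9667306 counts. WT replicate 3 held the lowest total and was left out of the fits, and its values are given as descriptions. The paper excluded a WT replicate of the RNA-seq for poor sample quality and low reads, and does not give its number. In the other 8 libraries, 0.152% to 0.295% of counts fell on the members, against 0.441% in WT replicate 3. The 3 genes with the highest level on the list of HEK293 markers were clearly present (VIM at 461 to 580 CPM, NEFM at 125 to 192 CPM and KRT18 at 58.6 to 159.8 CPM over all 9 libraries), and of 7 markers of other cells, CD3E had a count of 0 in every library. PECAM1 was at 0 in the 8 fitted libraries, and the 7 summed to 17.97 to 65.9 CPM, mostly COL1A1 and COL3A1.

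Most replication-dependent histone genes gave few counts. Since their mRNAs are known to lack a poly(A) tail and the priming is not given, few counts need not mean little mRNA. Of the members, 7 were at 0 in all 9 libraries, namely H1-1, H1-6, H2AC1, H2BC1, H2BC10, H4C6 and H4C7. H1-6, H2AC1 and H2BC1 are known as the testis forms of their classes. A count of 0 allows up to 3 counts, or 0.305 to 0.408 CPM in the 8 fitted libraries and 2.09 CPM in WT replicate 3, for counting error only. A further 15 members had at most 10 counts over the 9 libraries together. At least 3 counts were reached by 37 to 43 members in each of the 8 libraries and by 24 in WT replicate 3. Over the 8 libraries, 32 members reached 3 counts in every library, 18 in some and 20 in none. A mean of at least 1 CPM was reached by 28 members (40.0%), while 63.4% of the 20120 protein-coding genes reached it, a comparison that takes no account of the short length of the histone genes.

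Reads shared between near-identical copies limit what can be said of single members. Values that were not whole numbers, which mark reads divided between genes, were found in at least 1 library for 37 members, and 26 members were whole throughout and above 0. H3C14 and H3C15 had identical values in 9 of 9 libraries, H4C14 and H4C15 in 8, and H2AC18 and H2AC19 in 8. The members of these pairs cannot be told apart and are not independent. H4C11 and H4C12 also shared reads.

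H4C3, a gene for the core histone H4 with a single exon at chr6:26103933-26104337 on the plus strand, held most of the histone signal. It took between 79.0% and 90.1% of all member counts in each library. Per kilobase of exon its mean over the 8 libraries was 4802 CPM per kb, which ranked it 7 among all 78986 genes. The next member on this scale, H2BC12, was at 76.4 CPM per kb, 62.9-fold less. The highest replication-independent histone on the list was H2AZ1, a variant of H2A placed at promoters with a polyadenylated mRNA. It was at 387 CPM per kb, 12.4-fold less than H4C3. These folds depend on the exon lengths used, 405 bases for H4C3, 1879 for H2BC12 and 2270 for H2AZ1. In CPM, without division by length, H4C3 had a mean of 1945 CPM and ranked 58 among all genes. On that scale H2BC12 was at 144 CPM and H2AZ1 at 878 CPM.

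After H4C3, H2BC12 (H2B) and H4C11 (H4) were highest per length, H4C11 at 29.2 CPM per kb. H2AC25 (H2A) was at 21.5, H2AC18 at 16.7, H2AC20 at 15.4, H2AC19 at 15.1 and H1-2 (H1) at 14.4 CPM per kb. The highest H3 gene was H3C10 at 1.52 CPM per kb, and by CPM it was H3C6 at 2.88 CPM. The plot of all members by class shows how far H4C3 lies from the rest.

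**Figure D1:**
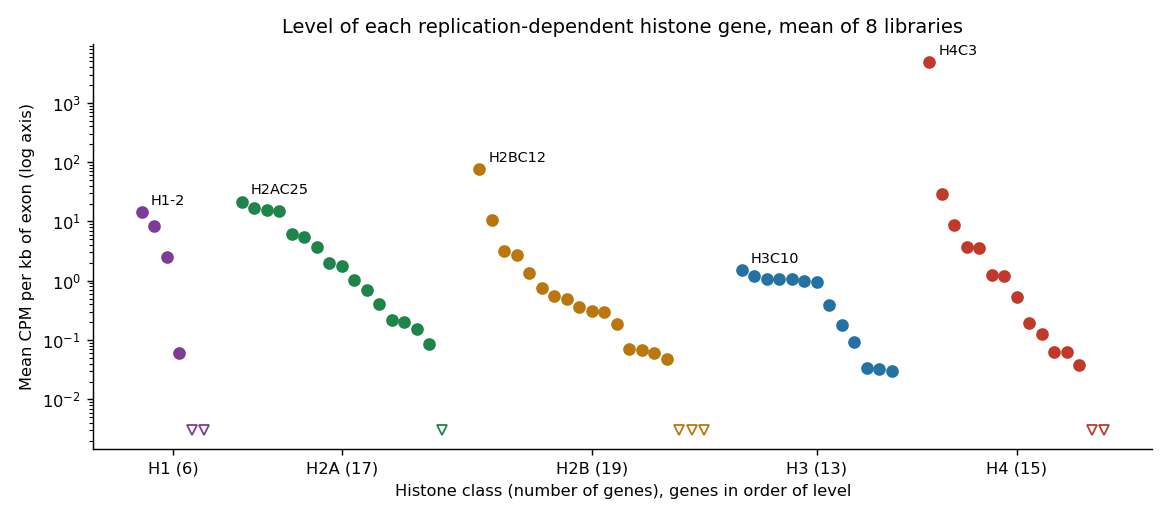
Mean level of each of the 70 members over the 8 fitted libraries, in CPM per kb of exon on a log axis, in order of level within each class, with the number of genes of the class in parentheses and the highest member named. Filled points are means, and open triangles at the bottom mark the 8 members at 0 in all 8 libraries. H4C3 lies at 4802 CPM per kb and the next member, H2BC12, at 76.4.

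The annotated end of the transcripts separated members in part. In GENCODE v44, 52 members ended at most 20 bases past the stem-loop. Another 17 had a transcript that ran more than 100 bases past it and held AATAAA or ATTAAA after it, the signals for polyadenylation, and the number was the same at 300 bases. The median over these 17 was 1.91 CPM and 0.751 CPM per kb, against 0.387 CPM and 0.383 CPM per kb for the other 53. By the exons that the deposited table lists, 29 members ran more than 100 bases past the stem-loop, including H2BC12 and H1-2. With this grouping, chosen after the data were seen, the medians were 1.57 CPM for the 29 and 0.446 CPM for the other 41. Per kilobase the order turned around, to 0.531 and 0.951 CPM per kb. The difference in CPM was thus found with both annotations, and the difference per length was not. Reads were counted over the deposited exons, so members with longer exons there had more sequence in which reads could be counted. H4C3 ended 5 bases past its stem-loop in both annotations.

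**Figure D2:**
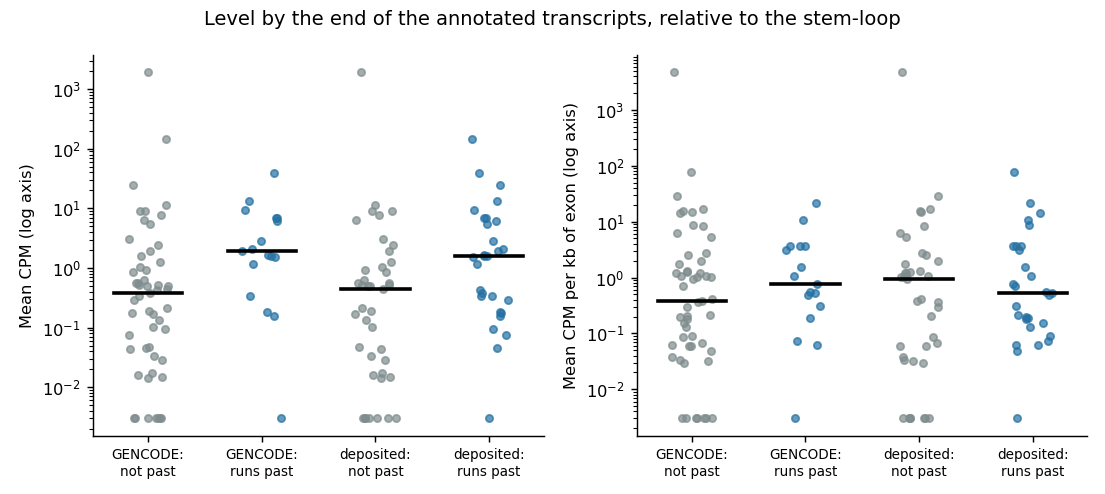
Mean level of each of the 70 members over 8 libraries, in CPM on the left and in CPM per kb of exon on the right, both on log axes, grouped by whether a transcript runs past the stem-loop in GENCODE v44 or in the exons of the deposited table. Points are genes, black lines are medians, and points at the lowest position are genes at 0. In CPM the genes that run past have the higher median with either annotation, 1.91 against 0.387 and 1.57 against 0.446. Per kb they have the higher median with GENCODE v44, 0.751 against 0.383, and the lower one with the deposited exons, 0.531 against 0.951.

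The comparison of each mutant with WT p53 asks whether cells with a mutant p53 hold different amounts of histone mRNA. H4C3 was lower in both mutant lines than in both fitted WT libraries. Its level was 2647 and 2568 CPM in WT replicates 1 and 2, 1199, 2053 and 1262 CPM in the 3 G245S libraries, and 1698, 2283 and 1850 CPM in the 3 R273H libraries. No mutant library reached a WT library, G245S replicate 2 and R273H replicate 2 were the highest of their groups, and the 2 mutant groups overlapped. The WT mean was 2607 ± 55.6 CPM (SD, n = 2). The mean of the G245S libraries was 1505 ± 476 CPM (SD, n = 3), and that of the R273H libraries was 1944 ± 303 CPM (SD, n = 3). WT replicate 3 was at 4120 CPM, above all others.

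The log2 fold change of H4C3 was −0.79 ± 0.18 (SE) in G245S, which did not pass the threshold after adjustment over all genes (edgeR quasi-likelihood test, adjusted p = 0.212). In R273H it was −0.42 ± 0.13 (SE), with an adjusted p of 0.504 by the same edgeR test. With all 3 WT libraries the values were −1.05 and −0.68, with edgeR adjusted p of 0.204 and 0.493. Without G245S replicate 2, the fold change in G245S was −1.07 and passed the threshold (edgeR adjusted p = 0.00033). Without a filter on low counts, H4C3 passed in both mutants (edgeR adjusted p = 1.05e-10 in G245S and 0.0189 in R273H). Its log2 fold changes hardly moved in that setting, at −0.78 in G245S and −0.43 in R273H. The shares of all genes that passed in these alternative fits are not given here, so the calls cannot be set beside them. With DESeq2, the adjusted p was 1.0 and 0.103. Over all alternatives run, the adjusted p of H4C3 ranged from 1.05e-10 to 1.0 in G245S and from 0.0189 to 1.0 in R273H.

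The summed level of all members followed H4C3. It was 2975 and 2900 CPM in WT replicates 1 and 2, 1495, 2403 and 1598 CPM in G245S and 2030, 2629 and 2193 CPM in R273H. On the log2 scale the ratio, taken as a difference of mean log2 sums, was −0.71 for G245S and −0.37 for R273H. The SD between replicates was 0.24, the root of the mean of the group variances with equal weight. In WT replicate 3 the sum was 4570 CPM, and the ratios became −0.93 and −0.58 when it was included. Without H4C3 the sum was 328 and 332 CPM in WT, 296, 349 and 336 CPM in G245S, and 332, 346 and 342 CPM in R273H. The mutant and WT libraries then overlapped in both comparisons, and the ratios were −0.016 and 0.043. This sum holds members that lay on opposite sides of WT, with H2BC12 above it. Without both H4C3 and H2BC12, a choice made after the data were seen, the sum was 203 and 215 CPM in WT, 146, 191 and 183 CPM in G245S and 186, 210.0 and 181 CPM in R273H. Every G245S library was then below WT and R273H overlapped it, with ratios of −0.28 and −0.12. In bulk RNA, fewer cells in S phase and less histone mRNA in each cell cannot be told apart. How evenly mRNAs without a poly(A) tail were captured across the libraries is not known either.

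**Figure D3:**
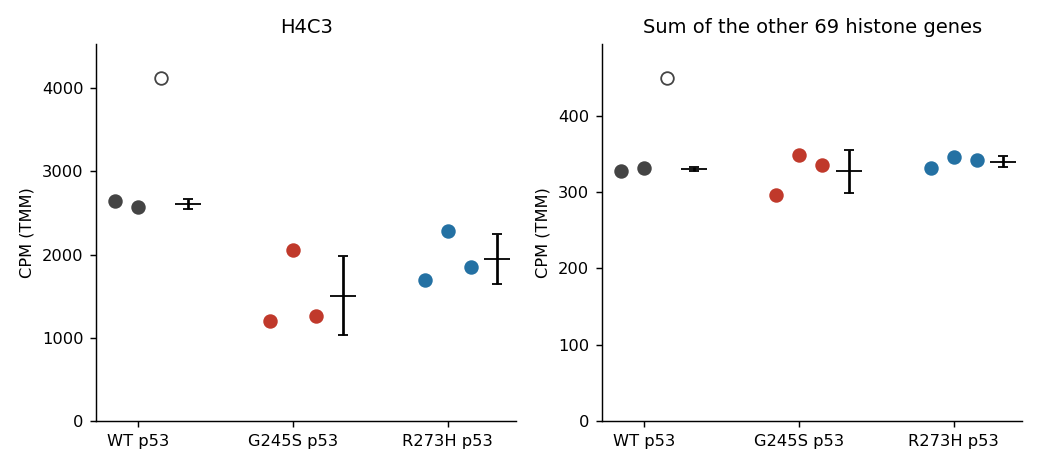
Level in each library, in TMM-scaled CPM, of H4C3 on the left and of the sum of the other 69 members on the right. Points are libraries in order of replicate number, the open point is WT replicate 3, which was left out of the fits, and the bars to the right are the mean ± SD of the fitted libraries (2 WT, 3 G245S, 3 R273H). H4C3 lies at 2568 CPM or more in WT and at 2283 CPM or less in the mutants, and the other 69 members sum to 296 to 349 CPM in all 8 fitted libraries.

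Several properties of the libraries are given beside the level of H4C3. The share of counts on small RNAs without a poly(A) tail (snRNA, snoRNA, scaRNA, RN7SK, RMRP, RPPH1, RN7SL1 and RN7SL2) was 0.0218% and 0.0254% in WT replicates 1 and 2, 0.0245%, 0.0252% and 0.0234% in G245S and 0.0229%, 0.0320% and 0.0208% in R273H. It was 0.0745% in WT replicate 3, the library with the highest H4C3. Within each mutant group, replicate 2 was highest both in this share and in H4C3, whereas in the fitted WT libraries replicate 2 had the higher share and the lower H4C3. The share of counts on the mitochondrial chromosome was 4.47% and 5.71% in WT, 8.34%, 6.42% and 5.55% in G245S and 6.86%, 5.25% and 4.83% in R273H. The part of these properties in the level of H4C3 was not tested.

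Between G245S and WT, 15893 genes were tested, and 0.126% of them passed an adjusted p of 0.05. Of the 70 members 27 passed the filter on low counts and could be tested, each with at least 3 counts in every fitted library, and 0 of them passed (edgeR), with 0 also by DESeq2. At an unadjusted p under 0.05 there were 7 of 27 members with edgeR, 6 lower and 1 higher, and 4 with DESeq2, where 6.66% of all tested genes passed with edgeR and 2.30% with DESeq2. The libraries of the 2 groups did not overlap for 14 of the 27 (9 lower and 5 higher), where 22.1% of all tested genes did not overlap. The median log2 fold change of the 27 was −0.15, against 0.00 over all tested genes, with 14 below 0 and 13 above it. A member could pass the filter through the group in which it was high, so these counts describe the tested members and not all 70.

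Between R273H and WT, 16022 genes were tested and 0.137% passed, with 0 of the 28 tested members by edgeR and 0 by DESeq2. At an unadjusted p under 0.05 there were 6 of 28 members with edgeR, 4 lower and 2 higher, and 5 with DESeq2, beside 6.11% of all tested genes with edgeR and 2.14% with DESeq2. The groups did not overlap for 7 of the 28 (3 lower and 4 higher), beside 20.7% of all tested genes. The median was −0.05, against 0.00 over all tested genes. The 2 comparisons share the WT libraries and are not independent. In both mutants, 6 of the 26 members tested in both comparisons lay apart from WT, beside 9.22% of the 15638 genes tested in both, namely H4C3, H2AC20 and H2AC12, an H2A gene, below it and H2BC12, H2BC5 and H3C6 above it.

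Among the other core histones, the H2B gene H2BC12 was higher in every mutant library. It was at 126 and 117 CPM in WT replicates 1 and 2, at 150.0, 158 and 153 CPM in G245S and at 146, 136 and 162 CPM in R273H. The log2 fold change was 0.35 ± 0.09 (SE) in G245S (edgeR adjusted p = 0.313) and 0.29 ± 0.10 (SE) in R273H (edgeR adjusted p = 0.606), so the difference did not pass in either. WT replicate 3, at 122 CPM, lay with the other WT libraries for this gene. H2BC5 had 8.13 and 6.40 CPM in WT, 8.73, 9.50 and 9.32 CPM in G245S and 9.41, 11.3 and 11.3 CPM in R273H. Its log2 fold change in R273H was 0.54 ± 0.17 (SE), with an edgeR adjusted p of 0.547. H2BC11 was at 15.6 and 13.4 CPM in WT and between 11.2 and 15.3 CPM in the mutants, where G245S lay below both WT libraries and R273H overlapped them. Summed H2B was 158 and 146 CPM in WT, 180, 191 and 183 CPM in G245S and 177, 174 and 198 CPM in R273H, and most of it was H2BC12.

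The tested H2A genes that did not overlap WT were all lower in the mutants. They were H2AC20, H2AC11 and H2AC12 in G245S, of 8 tested, and H2AC20 and H2AC12 in R273H, of 9 tested. Of all tested genes, 22.1% in G245S and 20.7% in R273H did not overlap WT. H2AC20 was at 10.1 and 10.2 CPM in WT, 6.30, 8.48 and 6.62 CPM in G245S and 5.40, 5.85 and 8.05 CPM in R273H, so that every mutant library was below WT. Its log2 fold change was −0.51 ± 0.17 (SE) in G245S and −0.65 ± 0.18 (SE) in R273H (edgeR adjusted p = 0.593 and 0.416). H2AC25, the highest H2A gene, overlapped between the groups, with 40.1 and 50.5 CPM in WT, 27.6, 42.6 and 39.6 CPM in G245S and 35.8, 48.3 and 33.6 CPM in R273H. H2AC18 and H2AC19, which share their reads, and H2AC6 overlapped as well. H2AC11 was at 1.95 and 2.30 CPM in WT and 0.71, 1.54 and 0.86 CPM in G245S, a log2 fold change of −1.05 ± 0.40 (SE) with an edgeR adjusted p of 0.673. In R273H it was at 1.95, 1.91 and 1.30 CPM and overlapped WT.

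All 3 tested H1 genes were below both WT libraries in every G245S library, beside 22.1% of all tested genes that did not overlap. None of the 3 passed the threshold. H1-4 was at 7.67 and 13.95 CPM in WT, 3.05, 1.67 and 6.87 CPM in G245S and 8.72, 4.08 and 6.04 CPM in R273H. The G245S libraries were below both WT libraries, and the R273H libraries overlapped with them. Its log2 fold change was −1.47 ± 0.37 (SE) in G245S (edgeR adjusted p = 0.310), moving to −0.99 without WT replicate 2 and to −2.13 without G245S replicate 3, and in R273H it was −0.74 ± 0.27 (SE) (edgeR adjusted p = 0.703). H1-2 was at 26.5 and 32.6 CPM in WT, 17.4, 19.5 and 25.1 CPM in G245S and 31.6, 21.0 and 23.5 CPM in R273H. The log2 fold change was −0.51 ± 0.15 (SE) in G245S (edgeR adjusted p = 0.489) and −0.21 ± 0.15 (SE) in R273H. H1-3 had a log2 fold change of −1.13 ± 0.37 (SE) in G245S, and it was at 2.41 and 3.45 CPM in WT and 1.83, 1.28 and 0.74 CPM in G245S. Summed H1 was 36.5 and 50.2 CPM in WT, 22.2, 22.5 and 32.7 CPM in G245S and 41.9, 26.5 and 32.6 CPM in R273H. Without a filter on low counts, H1-4 and H1-2 passed in G245S (edgeR adjusted p = 1.16e-09 and 0.0239). H1-4 also passed in R273H in that setting (edgeR adjusted p = 0.0157). The log2 fold changes of H1-4 hardly moved, at −1.46 in G245S and −0.75 in R273H. The share of all genes that passed without the filter is not given here. Over all alternatives the adjusted p of H1-4 reached 1.0 in both comparisons.

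No H3 gene and no H4 gene other than H4C3 reached an unadjusted p under 0.05 in either mutant. H3C6 was at 2.41 and 2.30 CPM in WT, 2.94, 2.83 and 3.56 CPM in G245S and 3.44, 2.72 and 2.84 CPM in R273H, so that every mutant library was above WT. Its log2 fold changes were 0.40 ± 0.28 and 0.36 ± 0.28 (SE), with edgeR adjusted p of 0.833 and 0.955. It was at 0 in WT replicate 3. Summed H3 was 8.71 and 7.42 CPM in WT, 7.82, 8.99 and 9.07 CPM in G245S and 9.30, 8.98 and 8.53 CPM in R273H. H4C11 was at 15.6 and 10.6 CPM in WT, 5.69, 14.9 and 11.5 CPM in G245S and 9.87, 15.3 and 7.58 CPM in R273H, and the groups overlapped. H4C12, which shares reads with it, and H4C14 and H4C15 overlapped in both comparisons. H4C8, named after its values were seen, was at 1.15 and 0.90 CPM in WT and 1.219, 1.28 and 1.59 CPM in G245S, which lay above WT (log2 fold change 0.41 ± 0.41 (SE)).

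**Figure D4:**
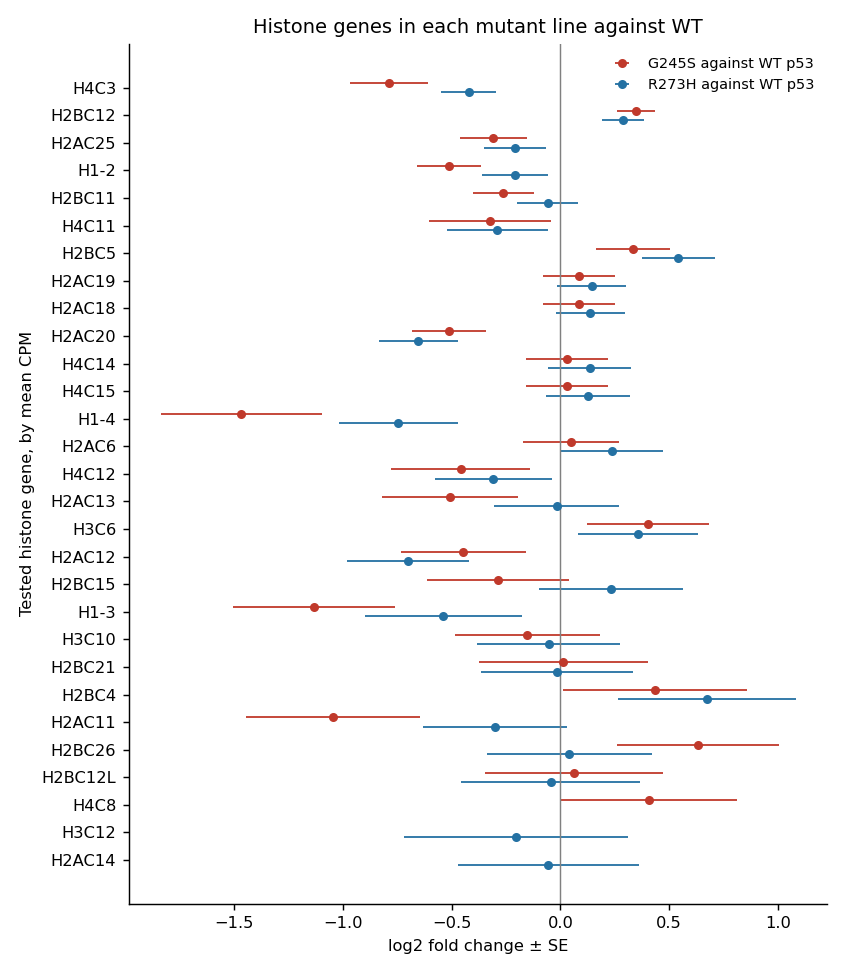
Log2 fold change ± SE of each tested member in G245S against WT p53 (27 genes) and in R273H against WT p53 (28 genes), in order of mean CPM from the top, from the edgeR fits with WT replicates 1 and 2. The line marks 0. No value passes an adjusted p of 0.05, H4C3 lies at −0.79 and −0.42, H1-4 at −1.47 and −0.74, and H2BC12 at 0.35 and 0.29.

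Grouped by annotated end, a split made after the data were seen, the 14 tested members without a transcript past the stem-loop in GENCODE v44 showed a median of −0.48 for G245S on the log2 scale, with 10 below 0, and the 13 with one had a median of 0.03, with 4 below 0. Of the 6 members that were lower at an unadjusted p under 0.05, 6 were in the group without such a transcript by GENCODE v44, and 4 by the deposited exons, where H1-2 and H2AC11 were in the other group. In R273H the medians were −0.25 over 16 members and 0.13 over 12. By the deposited exons, the medians were −0.48 over 10 and 0.03 over 17 in G245S, and −0.25 over 12 and 0.08 over 16 in R273H. These medians are descriptions of few genes, and H2BC12, without a longer transcript in GENCODE v44 and with 1 in the deposited exons, was higher in both mutants.

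R273H was also compared with G245S. Of 15614 tested genes, 0.0% passed with edgeR, with 741 (4.75%) at an unadjusted p under 0.05, and 1 passed with DESeq2, with 274 at an unadjusted p under 0.05. None of the 27 tested members passed with edgeR or DESeq2, and at an unadjusted p under 0.05 there was 1 with edgeR and 0 with DESeq2. The groups did not overlap for 1 of 27 members, H2BC26, which was lower in R273H, beside 9.01% of all tested genes. H4C3 had a log2 fold change of 0.36 ± 0.17 (SE), an unadjusted p of 0.0446 and an edgeR adjusted p of 0.994. Without a filter on low counts it passed (edgeR adjusted p = 0.0244), at a log2 fold change of 0.35. The share of all genes that passed in that fit is not given here. H2AC11 and H1-4 had the next smallest p, with log2 fold changes of 0.75 ± 0.36 and 0.72 ± 0.36 (SE). The median of the 27 members was 0.10, and the ratio of summed levels was 0.34 on the log2 scale, and 0.060 without H4C3.

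The genes that transcribe, process and bind histones or their mRNAs were described from lists chosen with earlier results of these data known. Of 19 genes for the 3′ end processing and decay of histone mRNA, 0 passed in any comparison and 0 reached an unadjusted p under 0.05 in either mutant against WT (edgeR), with medians of 0.01 and 0.00. SLBP, which binds the stem-loop, was at 73.0 and 68.8 CPM in WT, 67.2, 70.4 and 68.3 CPM in G245S and 70.7, 72.1 and 76.6 CPM in R273H. Both mutant groups overlapped WT, and the R273H libraries lay just above the G245S libraries. The highest of this list were SRRT, NCBP2 and UPF1, and all had a log2 fold change between −0.10 and 0.07. Of 9 genes for histone gene transcription, 0 passed and 0 reached an unadjusted p under 0.05 in either mutant, with medians of −0.11 and −0.14. NPAT, the coactivator of histone genes, was at 24.1 and 29.2 CPM in WT, 25.5, 19.9 and 22.7 CPM in G245S and 21.6, 22.2 and 23.3 CPM in R273H. The G245S libraries overlapped WT, and the R273H libraries were below it, with a log2 fold change of −0.25.

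Of 17 histone chaperones, which carry histones to DNA, 0 passed, and 1 reached an unadjusted p under 0.05 in each mutant. This was IPO4, an importer of histones, named after its values were seen, which was at 101 and 94.4 CPM in WT and at 115 to 122 CPM in the 6 mutant libraries (edgeR adjusted p = 0.586 in G245S and 0.553 in R273H). NAP1L1, SSRP1 and NASP, the highest of the list, had log2 fold changes between −0.15 and −0.04. Of 12 replication-independent histones, 0 passed, 12 were below 0 in G245S and 10 in R273H, and the medians were −0.07 and −0.06. H2AZ1, H3-3A and H3-3B, the highest of the list, had log2 fold changes between −0.12 and 0.07. H2AX, also on the list, had the stem-loop pattern 49 bases after its stop codon, as the members do.

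The 20 S phase genes are given beside the histone levels, since both are used in DNA replication. None passed in any comparison (edgeR). At an unadjusted p under 0.05 there were 5 in G245S and 3 in R273H, all lower, and 0 in R273H against G245S. Of all tested genes, 6.66%, 6.11% and 4.75% were under it in these 3 comparisons. In each mutant 18 of the 20 were below 0, with medians of −0.11 in G245S and −0.14 in R273H. Their summed level was 3143 and 3030 CPM in WT, 2795, 2839 and 2745 CPM in G245S and 2859, 2787 and 2836 CPM in R273H, so the mutants lay below WT. It was 2645 CPM in WT replicate 3, the lowest of all libraries, where H4C3 was highest. PCNA, the sliding clamp of DNA polymerase, was at 406 and 354 CPM in WT and between 280.4 and 328 CPM in the mutants, with log2 fold changes of −0.38 and −0.29 (edgeR adjusted p = 0.313 and 0.645). MCM2 and MCM7, parts of the replicative helicase, had log2 fold changes between −0.11 and −0.04. The part of these genes in the level of H4C3 was not tested.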

How the data were processed

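RNA-seq was analyzed in 9 libraries, 3 biological replicates each of HEK293T lines with WT, G245S or R273H p53. Per the study's methods, the authors used FastP for filtering, STAR 2.7.11 for alignment and UMICollapse for duplicates with the same molecular identifier. Reads over exons and 3′ UTRs were then assigned by featureCounts with strand, and a read that mapped to several genes was split into fractions. What the authors deposited are these expected counts, unnormalized and on GRCh38. The authors also deposited 9 columns of CPM, scaled by library, which were not used. Tools and versions are from the study's methods and the submitters' processing notes. The members and lists were chosen with earlier results of these data known.

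Expected counts were rounded, filtered with filterByExpr and scaled with TMM. Groups were compared in pairs in edgeR 4.0.16 under R 4.3.3 by its quasi-likelihood test, adjusted by Benjamini-Hochberg over all tested genes and a threshold of 0.05. The pipeline was tested on simulated data. WT replicate 3 was left out on depth alone, as it held fewer than 4096044 counts, which is 0.5 times the median total of the other 8. The other totals were 7325514 to 9667306 counts. Floors of 3 counts cover counting error only. Replicates are stated to be biological. CPM was scaled by TMM factors over the 9 libraries, and CPM per kb divides it by the exon length of the table. Summed levels were compared as means of log2 CPM. Named members are those past the threshold, the 15 highest by mean CPM, the 3 with the smallest p in each comparison and the highest of each class. From other lists, genes past the threshold or the 3 highest were named, with others where a sentence turns on their role. H1-3, H2AC12, H2BC26, H3C10 and H4C8 were named after their values were seen, as were other genes marked so. Alternatives covered the WT libraries, each replicate left out, DESeq2 1.42.0, scaling by upper quartile or by library size, a stricter filter or none, unrounded counts, 1 fit of all groups and a replicate term. Sequences were read from hg38 with pysam 0.24.0, at stop codons of GENCODE v44, in which all 70 gene identifiers were found. Plots were drawn with matplotlib 3.10.9. A result on some genes is not reported here.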

Additional observations from a re-analysis of the deposited data

Results flagged for a closer look

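WT replicate 3, the library of 1486315 counts that was left out of the comparisons, held a histone signal above that of all 8 fitted libraries. The paper excluded a WT replicate for poor sample quality as well as low reads, without giving its number. The signal is therefore given as a description of that library only. H4C3 was at 4120 CPM in it, and the members summed to 4570 CPM, or to 449 CPM without H4C3. The highest of the fitted libraries was at 2647 CPM for H4C3, 2975 CPM for the sum and 349 CPM for the sum without H4C3. The same library had the highest share of counts on small RNAs without a poly(A) tail, 0.0745% against at most 0.0320%, and their part in the histone level was not tested.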

How the results depend on the processing

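No member passed the threshold in any comparison as reported. Without a filter on low counts, 3 members passed in G245S, 2 in R273H and 1 in R273H against G245S. The shares of all genes that passed without this filter, or with the replicate block, are not given here. The log2 fold change of H4C3 in G245S was −0.78 without the filter and −0.79 with it. With the replicate block, 2 passed in G245S (H1-4 and H1-2), 0 in R273H and 1 in R273H against G245S (H4C3, log2 fold change 0.39, edgeR adjusted p = 0.00069). Nothing in the labels says that equal numbers mark paired libraries, and the correlation of the 7 same-numbered pairs ranged from −0.271 to 0.376. Leaving out each replicate gave 0 to 1 called members in G245S and 0 in the other comparisons. Where this left WT with 1 library, that library was assumed to vary like the mutant libraries. The other alternatives gave 0. Without H4C3, a choice made after seeing the data, the log2 ratios of summed CPM were −0.016 in G245S, 0.043 in R273H and 0.060 between the mutants, and without H4C3 and H2BC12 they were −0.28, −0.12 and 0.16. Leaving out a replicate gave medians of −0.21 to −0.011 in G245S, −0.11 to 0.079 in R273H, where the sign turned, and 0.0082 to 0.22 between the mutants.

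Over 17 named members and all alternatives except the other pairs of WT libraries, 670 of 712 values kept their direction and side of the threshold, 10 passed it and 32 turned in sign. With all 3 WT libraries, H2AC18 and H2AC19 turned to −0.079 in G245S, and to −0.021 and −0.014 in R273H. With WT replicates 1 and 3 or 2 and 3 in place of 1 and 2, added after seeing the data, 10 of 68 values turned, between −0.22 and 0.094 (H2AC18, H2AC19, H2AC6 and H2BC11), and 0 passed. The remaining turns among the 32 came from leaving out a replicate. In G245S these ranges were −0.63 to 0.0034 for H4C11, −0.011 to 0.15 for H2AC18 and H2AC19, −0.074 to 0.11 for H4C14 and H4C15 and −0.15 to 0.30 for H2AC6. In R273H they were −0.16 to 0.056 for H2BC11, −0.59 to 0.021 for H4C11, −0.010 to 0.24 for H4C14, −0.023 to 0.22 for H4C15, −0.00033 to 0.48 for H2AC6 and −0.63 to 0.13 for H4C12. Between the mutants they were −0.076 to 0.22 for H2AC25, −0.30 to 0.34 for H4C11, −0.012 to 0.15 for H2AC18, −0.0061 to 0.15 for H2AC19, −0.046 to 0.21 for H4C14, −0.059 to 0.20 for H4C15, −0.051 to 0.33 for H2AC6, −0.18 to 0.47 for H4C12 and −0.16 to 0.054 for H3C6. The cause was not tested. With 10 counts in place of 3, 24 to 27 members were counted per fitted library and 13 in WT replicate 3. At this depth a count of 0 in a library allows a level of up to 3 counts, and with 2 WT libraries the spread in WT is poorly known.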
